A study of Arabidopsis thaliana with 3 samples.

Results

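Peaks deep inside genes were the intervals of the replicate 1 list of BDH1-FLAG that overlapped an interval of the replicate 2 list by 1 bp or more and whose summit, the highest point of the peak, lay inside a gene and more than 500 bp from both ends of every annotated gene. They numbered 1669 of the 16653 intervals in the replicate 1 list. The study profiled where BDH1, a BCL-domain homolog protein of Arabidopsis thaliana, sits on chromatin, using chromatin immunoprecipitation and sequencing (ChIP-seq) with an anti-FLAG antibody. Both samples used here came from inflorescences, with the flowers and the stem tips that bear them. The plants had the bdh1-1 mutation, carried BDH1 fused to the FLAG tag, and grew on soil under long days. The third sample was wild type without a tagged protein, was treated with the same antibody, and was not analysed here. No comparison between genotypes was therefore made. The labels give neither the promoter of the transgene nor whether the replicates came from separate plants or lines. The spread between them may thus be technical, and the tissue could not be checked, as peak lists hold no expression values.

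The series title places BDH proteins with the SWI/SNF complex. SWI/SNF complexes use ATP to slide or evict nucleosomes, and their catalytic subunits in Arabidopsis include BRM and SYD. Remodelers of this kind are best known at the ends of genes, where transcription starts and stops. The formaldehyde used in ChIP also links proteins that reach DNA only through others, so a peak marks where a protein was held, directly or not.

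BDH1-FLAG summits were densest a short way inside genes and became rarer from there inwards. In replicate 1 the density of summits shared with the other list was highest at 200 to 300 bp from the nearest gene end, with 585 summits per Mb of gene sequence at that distance, after 121 in the first 100 bp and 423 in the next. It was 120 per Mb at 500 to 600 bp, the outermost band of deep peaks. From there it fell to 52.2 per Mb at 700 to 800 bp, to 22.1 at 1000 to 1200 bp and to 4.10 at 2000 to 2500 bp. Replicate 2 gave 116 and 427 in the first bands and 585, 124, 54.3, 21.9 and 6.70 per Mb in those that followed. Over all genes, the profile of each replicate fell in every band beyond 300 bp, with no second maximum in the interior. In protein-coding genes of 4 kb or more the fall was less even, with 14.6 per Mb at 1000 to 1200 bp and 17.9 at 1200 to 1400 bp in replicate 1, from 19 and 23 summits. In replicate 2 those bands held 17.6 and 14.8 per Mb, after 16.6 at 900 to 1000 bp.

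**Figure D1:**
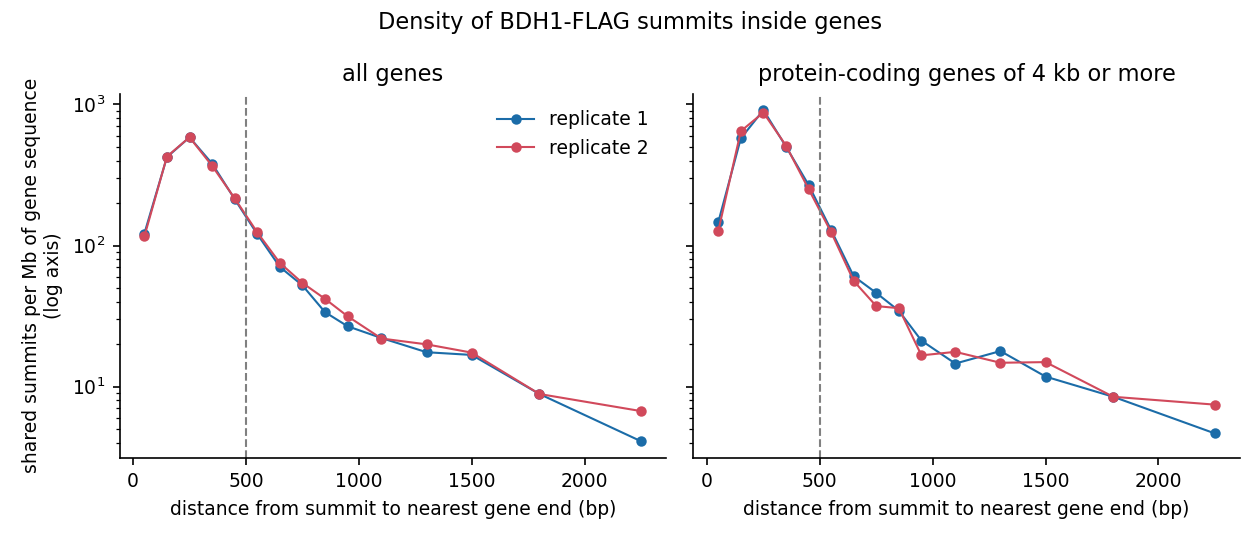
Density of shared BDH1-FLAG summits inside genes, per Mb of gene sequence on a log axis, against the distance in bp to the nearest gene end, for each replicate in all genes (left) and in protein-coding genes of 4 kb or more (right). The dashed line marks 500 bp, beyond which peaks were called deep. Density rises up to 200 to 300 bp, where it is 585 per Mb in both replicates over all genes. Beyond that it falls in every band over all genes, and less evenly in the long genes.

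Deep sequence, meaning gene sequence more than 500 bp from every gene end, made up 43.6 Mb, or 36.6% of the span of chromosomes 1 to 5. It held 38.3 shared summits per Mb in replicate 1 and 40.9 in replicate 2. Gene sequence within 500 bp of an end held 338 and 335 per Mb. Summits were thus 8.51 ± 0.439 times denser near the ends (SD, n = 2). Deep peaks were 11.8% of the shared peaks of replicate 1, and the 1782 found in the same way with the summits of replicate 2 were 12.5% of its shared peaks, a mean of 12.2% ± 0.484 (SD, n = 2). Each list was filtered for overlap with the other, so these SDs leave out peaks found in 1 list only. Without that filter the density ratio, deep to near ends, was 0.128 in replicate 1 and 0.126 in replicate 2, beside 0.113 and 0.122 with it.

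Most deep peaks lay just past the limit. The distance from their summits to the nearest gene end had a median of 666 bp, an interquartile range of 561 to 875 bp and a maximum of 4112 bp, and 302 of them (18.1%) lay more than 1000 bp from an end. At the limit itself, the peaks in FTSH8, PRA1.F4 and WRKY22 had their summit 1 bp past it and counted as deep, with fold enrichments of 2.06, 1.94 and 2.04 in replicate 1. Those in AT1G69760, AT1G70180 and AT1G76600 had it at 500 bp and did not, with 3.63, 2.10 and 3.58 in the same list. The share of shared peaks that were deep was similar on every chromosome, from 10.8% on chromosome 2 to 12.4% on chromosome 4.

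In replicate 1, peaks deep inside genes were found again in the other list less often than peaks at gene ends. Of the 2069 peaks of replicate 1 with a deep summit, 80.7% overlapped a peak of replicate 2 (exact 95% interval 78.9% to 82.3%), where 84.6% of all its peaks did so. Peaks near gene ends reached 87.8%, and those more than 500 bp outside genes 52.6%. In replicate 2, 86.6% of the 2057 peaks with a deep summit overlapped a peak of replicate 1 (exact 95% interval 85.1% to 88.1%), against 86.7% of all its peaks and 87.6% of those near gene ends (87.1% to 88.2%). In that list the intervals of deep peaks and peaks near ends overlapped. Peaks were taken as independent in these intervals, which neighbouring peaks are not.

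The position of the replicate 2 summit was not used to choose the peaks, but it was not an independent measure of depth. A partner had to overlap the deep peak. Where several did, in 196 deep peaks (11.7%), the one with the nearest summit was taken. In 1072 of the 1669 deep peaks (64.2%, exact 95% interval 61.9% to 66.5%) the partner in replicate 2, the overlapping peak with the nearest summit, was deep as well. Over all shared peaks 11.8% had a deep partner, a background that takes no account of where the replicate 1 summit lay. A partner needed 1 bp of overlap only, and its summit could lie in another gene. The peak in CNX3, for example, had the same partner as that in AT1G01300, with a summit 1811 bp away. As an interval of replicate 2 could serve several peaks, the partners were not all separate positions. The partners of the other 597 lay within 500 bp of a gene end, 229 of them less than 100 bp short of the limit. By contrast, 94.7% of the shared peaks near gene ends had a partner near an end too.

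The farther in a peak lay, the more often its partner was deep. Among peaks 500 to 600 bp from an end, 44.9% had a deep partner, and the share was 62.8% at 600 to 800 bp and 84.4% at 800 to 1200 bp. At 1200 to 2000 bp 153 of 161 peaks had one, and all 19 peaks farther than 2000 bp did so too. A peak that stood close to the limit could fall back across it with a small shift, so this order follows in part from the rule. The median distance between the summits of a pair was 135 bp for deep peaks, 65 bp for peaks near gene ends and 100 bp for peaks outside genes. Within the deep peaks it did not follow depth, at 119 bp in the band nearest the limit, 159 bp at 600 to 800 bp and 86 bp for the 19 farthest in. It was 86 bp for the 1072 deep peaks with a deep partner and 260 bp for the 597 with a partner near an end. The class was set by the replicate 1 summit, so a peak past the limit in that list alone counted as deep.

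**Figure D2:**
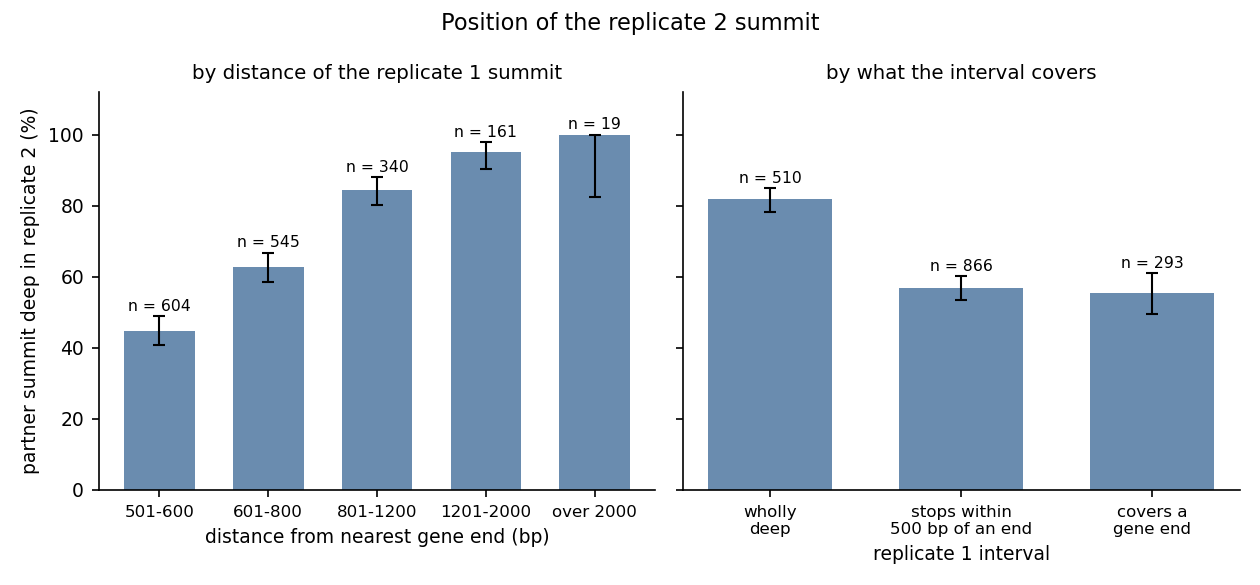
Percentage of deep peaks whose replicate 2 partner also had a deep summit, by the distance in bp of the replicate 1 summit from the nearest gene end (left) and by what the replicate 1 interval covered (right). Error bars are exact 95% binomial intervals and n is the number of peaks. The share climbs from 44.9% next to the limit to 100% beyond 2000 bp, and it is 81.8% for intervals that were deep over their whole length.

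The median height of deep peaks was close to that of peaks at gene ends, but lower among peaks of like width. The authors' fold enrichment of deep peaks had a median of 2.33 in replicate 1 (interquartile range 2.01 to 2.78) and of 2.309 in replicate 2 (2.02 to 2.69). For shared peaks near gene ends the medians were 2.36 in both lists, and for those outside genes 2.08 and 1.98. Within 5 bins of width, deep peaks had the lower median in replicate 1 in each, from 1.93 against 2.03 up to 300 bp to 3.02 against 3.16 above 1200 bp. The strongest deep peaks reached 5.05 in replicate 1 and 5.50 in replicate 2, while the strongest near gene ends reached 14.4 and 7.53. A fold enrichment of 3 or more in both lists was seen in 130 deep peaks (7.79%, exact 95% interval 6.55% to 9.18%) and in 6.08% of all shared peaks. A −log10 q of 10 or more in both lists was seen in 307 (18.4%, 16.6% to 20.3%) and in 16.3% of all shared peaks. Both shares were somewhat above the background, by less than that for width. Across the 1669 deep peaks the fold enrichments of the replicates had a Spearman correlation of 0.60, beside 0.61 for the 11859 shared peaks near gene ends. This is a description only, as the peaks of a list share one library and its depth.

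**Figure D3:**
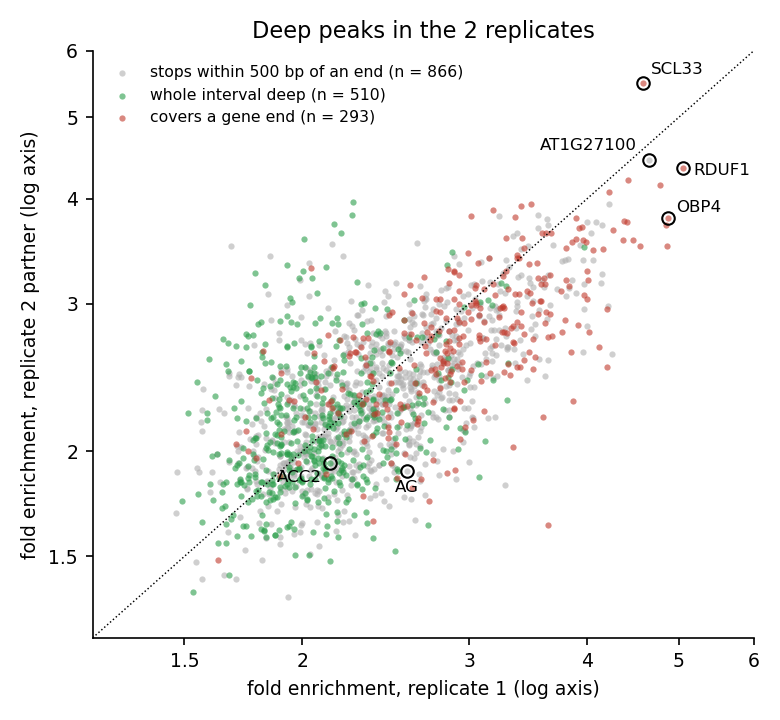
Fold enrichment of the 1669 deep peaks in replicate 1 against that of their partners in replicate 2, both on log axes, coloured by what the replicate 1 interval covered. The dotted line marks equal values and circles mark peaks named in the text. Intervals that cover a gene end lie to the upper right (median 2.93 in replicate 1) and those deep over their whole length to the lower left (median 2.06).

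Deep peaks were wide. Their median width was 651 bp in replicate 1 and 672 bp in replicate 2, beside 491 and 528 bp for shared peaks near gene ends. At 1500 bp or more stood 233 of them (13.96%, exact 95% interval 12.3% to 15.7%), against 5.11% of all shared peaks. The difference in width was larger among stronger peaks. In the lowest quartile of the replicate 1 list by fold enrichment, deep peaks and peaks near ends had median widths of 328 and 324 bp. In the highest quartile they had 1249 and 737 bp, at median fold enrichments of 3.01 and 2.94. The distance between the summits of the replicates was also larger for deep peaks at like width, with medians of 126 and 79 bp among peaks of 800 to 1200 bp. Those whose summit crossed the limit between the lists are among them, so this difference may follow in part from the rule, which was not tested.

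**Figure D4:**
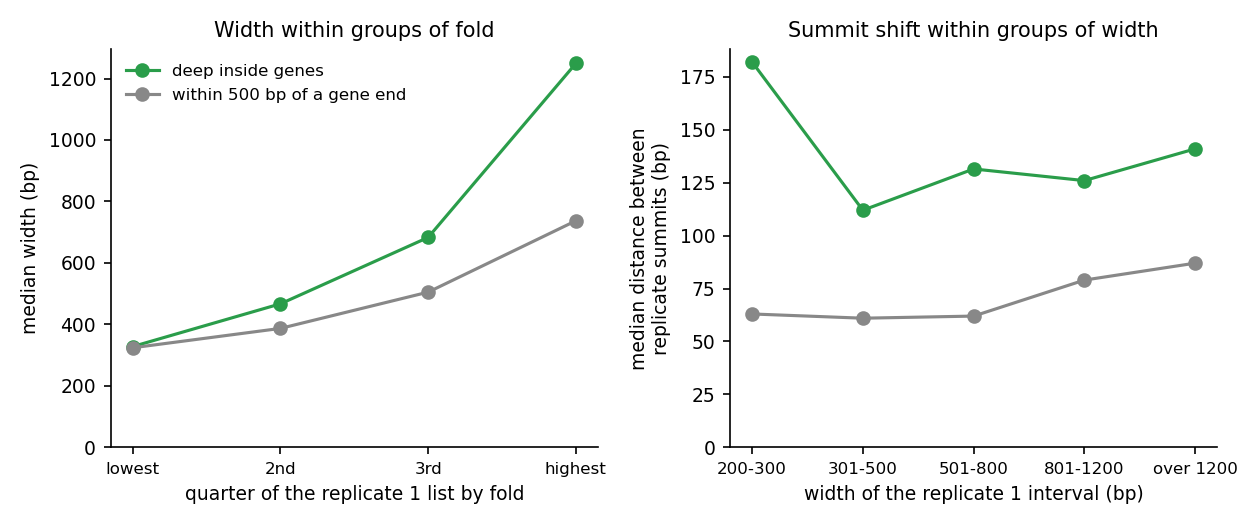
Median width in bp of shared peaks deep inside genes and of those within 500 bp of a gene end, in each quartile of the replicate 1 list by fold enrichment (left), and the median distance in bp between the summits of the replicates, by width of the replicate 1 interval (right). Widths are alike in the lowest quartile (328 and 324 bp) and part in the highest (1249 and 737 bp).

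Being deep at the summit did not make an interval deep over its length, and the deep peaks fell into 3 kinds. In 510 peaks (30.6%) the whole interval stayed more than 500 bp from every gene end. These were narrow and low, with a median width of 354 bp, a median fold enrichment of 2.06 in replicate 1 and 2.14 in replicate 2, and a median of 11.5% of the gene covered. Their genes were long, with a median of 3252 bp, and 81.8% of them had a deep partner. In 866 peaks (51.9%) the interval stopped within 500 bp of an end. The remaining 293 (17.6%) ran over a gene end, with a median width of 1555 bp, median fold enrichments of 2.93 and 2.73, and a median of 66.2% of a gene of median length 2221 bp. The kinds were defined by how far the interval reached. A deep summit in an interval that runs over an end requires more than 500 bp of width. The order of width, coverage and gene length thus follows in part from the definition.

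Strength and coverage went together. From the lowest to the highest quartile of deep peaks by replicate 1 fold enrichment, the share that ran over a gene end was 3.59%, 7.19%, 16.1% and 43.4%. The share that was deep over the whole interval was 53.8%, 40.8%, 19.9% and 7.67%. In all, 369 deep peaks covered 50% or more of their gene, 67 covered 90% or more, and 29 covered both ends of it. Width and fold enrichment come from the same caller and the same reads, so neither is independent of the other.

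Of the 10 deep peaks with the highest fold enrichment in replicate 1, 9 ran over a gene end. The highest fold enrichment in replicate 1 lay in RDUF1 (AT3G46620), a RING-type ubiquitin ligase gene of 1959 bp. Its interval spanned positions 17178008 to 17180293 of chromosome 3 (build TAIR10). The enrichment was 5.05-fold in replicate 1 and 4.35-fold in replicate 2. The interval covered 86.4% of the gene, and the summits of the replicates were 11 bp apart, 663 and 674 bp from the nearest end. OBP4 (AT5G60850), a Dof zinc finger transcription factor gene, came next with 4.86 and 3.79, in an interval that covered the gene in full at positions 24480243 to 24482352 of chromosome 5. AT1G01300 was also covered in full, with 4.86 and 3.52. The DnaJ protein gene AT3G13310, of 1086 bp, was covered over 91.3% of its length with 4.55 and 3.51.

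In replicate 2 the highest value among partners belonged to SCL33 (AT1G55310), a gene of an SR-like splicing factor. Its fold enrichment was 5.50 in replicate 2 and 4.58 in replicate 1, but its summits lay 504 bp and 483 bp from an end, on either side of the limit. The same crossing of the limit was seen in several other peaks of the top 10 of a list. TIFY7 (AT1G70700), a JAZ repressor gene of jasmonate signalling, had 4.42 and 4.22 with summits at 743 and 455 bp. BRI1 (AT4G39400), the gene of the brassinosteroid receptor, had 4.22 and 4.07 at 715 and 472 bp. RD19 (AT4G39090), which encodes a dehydration-responsive cysteine protease, had 4.22 and 3.94 at 514 and 463 bp, and AT5G47060 had 4.78 and 4.15 at 540 and 214 bp. AT3G03890 entered through replicate 2 alone, with 2.26 in replicate 1 and 3.96 in replicate 2, and summits 438 bp apart. These lay 683 and 245 bp from an end, so the value of 3.96 was that of a peak near an end.

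A strong peak with its summit well away from both ends was rarer. In AT1G27100, a gene of 4284 bp, the fold enrichments were 4.65 and 4.44, ranking 6 and 2 among deep peaks, and the summits lay 1301 and 1408 bp from the nearest end. The interval, at positions 9407409 to 9409118 of chromosome 1, reached no gene end but came within 500 bp of one. AT5G56240 had 4.85 and 3.72 with summits at 961 and 861 bp, and its interval did run over an end. The others of the top 10 of either list were AT2G26110 (4.47 and 3.57), AT1G78210 (3.49 and 3.94) and BG_PPAP (AT5G42100), a plasmodesmal glucanase gene, with 3.40 and 3.92.

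The widest deep peak spanned 4539 bp over FP3 (AT5G63530), a farnesylated protein gene of 2945 bp, with fold enrichments of 3.54 and 2.91. AT3G51950, TIFY7, AT5G49100 and BG_PPAP followed with 3496, 3437, 3378 and 3307 bp. In AT3G51950 the summits were 826 bp apart between the replicates, at 1098 and 272 bp from an end, so its depth was not held.

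The 5 peaks farthest from any gene end kept their position between the replicates. In ACC2 (AT1G36180), an acetyl-CoA carboxylase gene of 12636 bp, the summit lay 4112 bp from the nearest end in replicate 1 and 4034 bp in replicate 2. That peak was 344 bp wide, at positions 13549832 to 13550175 of chromosome 1, with fold enrichments of 2.14 and 1.94. The summit in AT3G60961 lay 3815 bp from an end, with 2.56 and 2.26, in a stretch that the table also gives to the pseudogene AT3G60965. The pseudogene AT3G42052 had 2.57 and 2.07 at 3380 bp, and AT1G71710 had 2.05 and 1.60 at 2990 bp. The fifth, in AT4G35240, was the strongest of them, with 3.28 and 3.15, a width of 1564 bp and summits 2920 and 2933 bp from an end. Summits of the replicates were between 3 and 78 bp apart in these 5 peaks, closer than the median of 135 bp over all deep peaks.

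**Figure D5:**
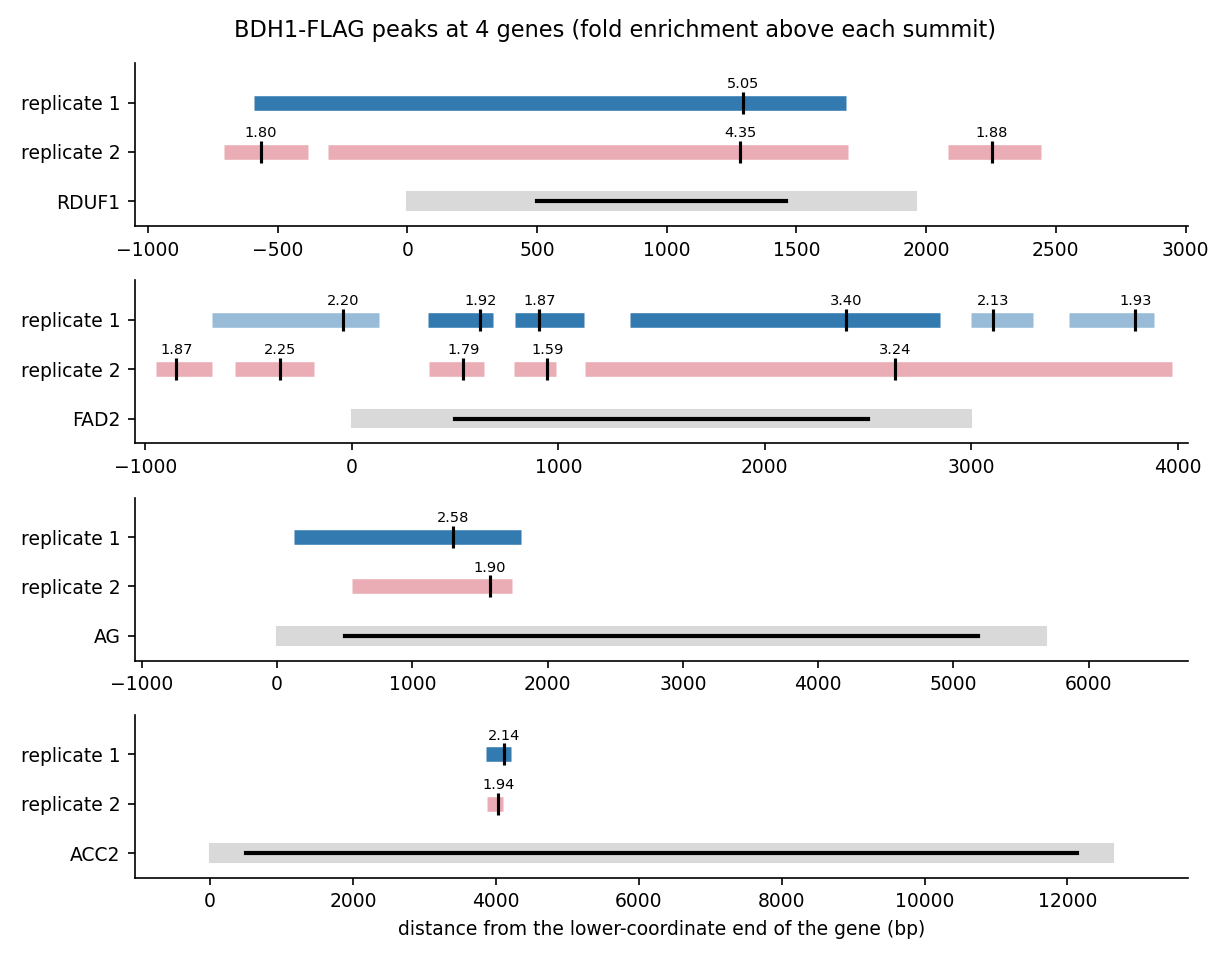
Peaks of replicate 1 (blue) and replicate 2 (red) around RDUF1, FAD2, AG and ACC2, drawn to scale in each panel in bp from the lower-coordinate end of the gene. Grey boxes are the genes, the black line within them is the part more than 500 bp from the gene's own ends, dark blue bars are deep peaks of replicate 1, ticks are summits, and numbers are fold enrichments. A single interval spans most of RDUF1, FAD2 holds 3 deep peaks, and the peak in ACC2 lies 4112 bp from an end. The highest of the FAD2 peaks has its replicate 2 summit 369 bp from an end.

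Deep peaks fell in 1530 genes, each peak being assigned to the longest gene at its summit, and 26 summits lay in more than 1 gene. Those were 5.84% of the 26188 genes with any deep sequence, while 45.1% of these genes overlapped a shared peak of any kind. Of the host genes, 1506 were protein-coding, 9 were long non-coding RNA genes and 7 were pseudogenes. Per Mb of deep sequence there were 43.9 deep peaks in protein-coding genes, 35.6 in long non-coding RNA genes and 1.54 in pseudogenes, where 9 peaks fell in 5.86 Mb. A separate shared peak with its summit within 500 bp of the gene's own ends was present in 466 host genes (30.5%). For 1043 of them (68.2%), no other shared peak touched the gene. Among the genes that held a peak deep over its whole interval, 52.8% had a separate peak at an end.

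Gene length set how much deep sequence there was, but long interiors held few peaks. The share of protein-coding genes with a deep peak was 3.72% up to 1500 bp, 8.96% at 3000 to 4000 bp and 7.32% above 8000 bp. Density fell throughout, from 152 deep peaks per Mb of deep sequence in the shortest of these genes to 54.6 at 2000 to 3000 bp and 8.23 above 8000 bp. Replicate 2 gave 180, 59.7 and 5.98. Part of this order went with distance from the ends, which is small in short genes. In the band of 500 to 600 bp alone, genes of up to 2000 bp held 135 summits per Mb and genes above 4000 bp 129 in replicate 1, and 154 and 124 in replicate 2. At 600 to 800 bp the values were 92.9 and 53.4 in replicate 1, and 102.5 and 46.7 in replicate 2. At 800 to 1000 bp they were 51.1 and 27.9 in replicate 1, and 60.3 and 26.4 in replicate 2. In both of these bands density was higher in the shorter genes in each replicate.

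A single deep peak was the rule, in 1400 genes, while 121 genes held 2 and 9 held 3. Summits of neighbouring deep peaks in a gene were a median of 710 bp apart. In 39 of these 130 genes all deep peaks of replicate 1 met the same interval of replicate 2, so that separate peaks of one list were a single interval in the other. PXY (AT5G61480), the gene of the receptor kinase for the vascular peptide TDIF, was such a case. Its 3 peaks, with fold enrichments of 1.82 to 2.07 and gaps of 356 and 370 bp, met one replicate 2 interval with a fold enrichment of 2.38.

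FAD2 (AT3G12120), which encodes the oleate desaturase of the endoplasmic reticulum, held 3 deep peaks that met 3 intervals. The low pair had fold enrichments of 1.92 and 1.87 in replicate 1 and of 1.79 and 1.59 in replicate 2. The high one had 3.40 and 3.24 and spanned 1501 bp in replicate 1 and 2847 bp in replicate 2. Its summit lay 607 bp from an end in replicate 1 but 369 bp in replicate 2. PIL6 (AT3G59060), the gene of the phytochrome-interacting factor PIF5, likewise joined low peaks (1.90 and 2.16 in replicate 1) to a wide one of 2426 bp with 2.798 and 3.03. NCED3 (AT3G14440), a key enzyme gene of abscisic acid synthesis, held 3 peaks of 1.98 to 2.44 in replicate 1 and 1.90 to 2.39 in replicate 2. The aquaporin gene PIP2E (AT2G39010) held 3 of 1.87 to 2.28, and AT3G49220 held 3 of 2.30 to 2.45. FAD2, NCED3 and PIP2E each had a deep partner for 2 of their 3 peaks. The remaining partner summit lay 473 bp from an end in NCED3 and 381 bp in PIP2E. The peaks in BXL2 (AT1G02640), a beta-xylosidase gene of the cell wall, IDD4 (AT2G02080), a zinc finger transcription factor gene, and AT5G21105 met 2 replicate 2 intervals each, with fold enrichments from 1.77 to 2.21 in replicate 1.

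Genes of 4 lists were then looked up, 55 genes in all, each with deep sequence. A deep peak lay in 5 of them (6 by the summits of replicate 2), where 5.84% of all genes with deep sequence held one. A shared peak of any kind touched 34, and in the 29 of these without a deep peak all such peaks had their summit within 500 bp of a gene end. The lists gave 20.3 deep peaks per Mb of deep sequence, beside 38.3 over all genes. The lists differed, with 68.9 per Mb in the floral regulators, from 3 deep peaks. The other lists held 1 deep peak each. These gave 21.8 in genes with a described inner regulatory sequence, 12.2 in silencing and histone modification genes and 11.1 in chromatin remodelling genes. AG counted in both of the lists it belonged to, and gene length was not matched.

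Among 10 genes chosen because a regulatory sequence inside them has been described, AG alone had a deep peak by the summits of replicate 1, while 3 had one by those of replicate 2, namely AG, SEP3 and UBQ10. AG (AT4G18960) is the floral organ identity gene for stamens and carpels, known for control elements in its large second intron. The peak in AG had a fold enrichment of 2.58 in replicate 1, where it ran from 10382979 to 10384657 on chromosome 4 and had its summit 1298 bp from the nearest gene end. In replicate 2 it spanned 10383412 to 10384592, with 1.90 and a summit at 1572 bp. No other shared peak touched AG. The gene table gives neither strand nor exons, so whether the interval met that intron was not tested. No shared peak lay on FLC, STK, DOG1, IBM1, RPP7 (AT1G58602) or PAT1 (TRP1 in the table). Peaks near ends were found at SEP3, FLM (MAF1) and UBQ10, and the replicate 2 partner at UBQ10 was deep, at 572 bp.

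Of 19 floral regulators, 3 had a deep peak. Beside AG these were SVP (AT2G22540), a repressor of flowering, with fold enrichments of 2.37 and 1.90 and summits at 637 and 659 bp, and FUL (AT5G60910, AGL8 in the table), a regulator of fruit and meristem identity. FUL had 2.68 and 3.05, with summits at 784 bp in replicate 1 and 284 bp in replicate 2, so its depth was not held. Of the 15 chromatin remodelling genes, BRM (AT2G46020), the SWI/SNF ATPase gene, was the one with a deep peak, at 3.20 and 3.07. Its summits at 652 and 482 bp stood on either side of the limit. Of the 15 silencing and histone modification genes, the H3K27 demethylase gene REF6 (AT3G48430) had one of 229 bp, at 1.85 and 2.55. The partner of that peak was centred 167 bp from a gene end. That replicate 2 interval was also the partner of a separate REF6 peak, at 2.60 in replicate 1 and 338 bp from an end. The value of 2.55 was thus not one of the deep peak alone. Across these lists, AG and SVP were thus the genes whose deep peak was deep in both replicates.

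Host genes were also counted by words in their symbols and synonyms, which name a product for some genes only. Of 577 protein-coding genes with deep sequence and the word kinase, 46 held a deep peak (7.97% of genes, 38.8 deep peaks per Mb). Of 278 with the word transporter 25 did (8.99%, 53.1 per Mb). Over all protein-coding genes with deep sequence the values were 6.69% and 43.9 per Mb, so kinase genes lay above the share and below the density. Ubiquitin genes did likewise, with 9 of 106 genes (8.49%, 36.04 per Mb). Disease resistance gave 2 of 12 (52.6 per Mb). The 46 genes named kinesin or myosin, with a median length of 6574 bp, held 2 (7.51 per Mb). None was found in the 23 helicase or the 11 pentatricopeptide genes so named. Transcription factor gave 11 of 107 genes (10.28%, 71.3 per Mb in replicate 1 and 123 in replicate 2). Zinc finger stood highest, with 12 of 64 genes (18.75%) and 257 deep peaks per Mb in replicate 1 and 291 in replicate 2. The genes so named were short, with a median length of 1764 bp against 2368 bp, and short genes held denser deep peaks in general. The zinc finger count may overlap with that of the zinc finger homeodomain family given below. These counts were described without a test.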

How the data were processed

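Inflorescences of 3 samples went through anti-FLAG ChIP-seq, and the 2 BDH1-FLAG replicates have a peak list each here. The submitters' processing notes name Bowtie2 2.5.2, SAMtools, bedtools 2.31.1, MACS2 2.2.9.1 and the build TAIR10, without roles. The control library and the filters are not given in the sources used here. The authors deposited 1 list per replicate, not pooled. Each peak has the authors' fold enrichment (a linear ratio), a −log10 p-value and a −log10 q-value (lowest 1.32 and 1.31), and a deposited score that was not used. These are the authors' values per peak and were used to describe or rank peaks within a list. Read depth is unknown.

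Genes came from a RefSeq table of TAIR10.1 (37899 genes on chromosomes 1 to 5, without strand or exons). Every statement on genes rests on that table fitting TAIR10 positions. Its coordinates are not printed, and no sequence was used here. Positions are 1-based. Intervals, distances and densities were computed in Python 3.11.15 with pandas 2.3.3 and checked on simulated peaks of known placement. Exact intervals are Clopper-Pearson (SciPy 1.17.1) and cover counting error only. With 1 group of 2 samples no test between groups was possible, and none was made over peaks.

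Named peaks were the 10 highest by fold enrichment in each list, the 5 farthest from gene ends, the 5 widest, those at the limit, those in genes with 3 deep peaks and those in 4 gene lists. That rule allowed 5 genes with 3 deep peaks, and all 9 that tied were named. Members and lists were chosen with earlier results of these data known. In all, 10 alternatives were planned, with other limits, thresholds, overlaps, genes and base lists.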

Additional observations from a re-analysis of the deposited data

How the results depend on the processing

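Of 80 alternative values, 20 stayed within the spread between the replicates or, for counts, within 1.5 times, and 60 did not. Values below are given in the order number of deep peaks, their percentage of shared peaks, median fold enrichment in replicate 1 and in replicate 2, median width, percentage with a deep partner, number of genes, and density ratio (deep to near ends, 0.113 in the main analysis), leaving out those that stayed. A limit of 250 bp gave 6724, 47.7%, 2.39, 2.37, 76.4%, 6310 and 0.354. A limit of 1000 bp gave 302, 2.14%, 2.15, 2.185, 477.5 bp, 72.5%, 278 and 0.0578. A −log10 q of at least 5 gave 918, 11.2%, 2.69, 2.60, 980 bp, 897 and 0.0993, and one of at least 10 gave 309, 13.4%, 3.24, 3.02, 1484 bp, 67.0%, 309 and 0.120. The 309 are those of the alternative setting, while 307 deep peaks of the main analysis reached 10 in both lists with their main partner. Overlap of 50% of each interval gave 10.25%, 2.47, 2.42, 780 bp, 68.1% and 0.0934. Summits within 100 bp gave 684, 7.69%, 2.43, 2.33, 87.9%, 668 and 0.0679, where the rule itself asks for close partners. Summits of replicate 2 gave 12.5%, 2.48, 2.23, 805.5 bp, 60.7% with a deep replicate 1 partner, and 0.122. Leaving out a replicate, with 1 list and no overlap asked, gave 12.4% to 12.5%, medians of 2.19 (replicate 1) and 2.16 (replicate 2), 534 bp, and ratios of 0.126 to 0.128, and counts of 2057 to 2069 peaks in 1823 to 1835 genes. Gene ends of protein-coding genes alone left all values as they were within those bounds. A deep summit in both lists, an alternative added after the data were seen, left 1072 peaks in 970 genes with medians of 2.36 and 2.27. The density ratio stayed below 1 in every setting tried, and the causes of the other shifts were not tested. No paired analysis was possible because the design has a single group with lists. Unknown read depth limits statements on missing peaks: a gene without a deep peak may hold one under the authors' threshold.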

Other observations

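The zinc finger homeodomain family, small transcription factors of plants, was looked at after the values were seen. Of its 14 numbered genes 12 had deep sequence, and 7 of these held 8 deep peaks in replicate 1, where 5.84% of all genes with deep sequence held one. By the summits of replicate 2, 7 of the 12 held a deep peak, a count that was not matched gene by gene. HB30 (AT5G15210) had fold enrichments of 3.76 and 2.78 in the replicates, HB28 (AT3G50890) 3.27 and 2.78, HB34 (AT3G28920) 2.82 and 2.56, and HB24 (AT2G18350) 2.64 and 2.36. Their intervals covered 84.1%, 93.0%, 84.0% and 67.9% of genes of 1743, 1373, 1529 and 1380 bp. ZFHD1 (AT1G69600), HB25 (AT5G65410) and HB31 (AT1G14440) were lower, from 2.03 to 2.28 in replicate 1, and HB31 held 2 peaks, of which one lay 1139 bp from an end. A deep partner was found for 6 of the 8 peaks, the exceptions being those in HB30 and HB25, with partner summits at 486 and 346 bp. The family was picked for these counts and was not tested. Its genes were short, with a median length of 1541 bp, and short genes held denser deep peaks in general. Among GATA factors, also looked at, 4 of 28 genes with deep sequence (14.3%) held a deep peak.

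BEL1-like homeodomain genes, which pattern meristems and ovules, were also picked after the values were seen and were not tested. Of the 12 genes, 3 (25.0%, beside 5.84% of all genes with deep sequence) held a pair of deep peaks in replicate 1, 821 to 1972 bp from gene ends. By the summits of replicate 2, 5 of the 12 held 7 deep peaks. All 6 peaks of replicate 1 had a deep partner, but these partners were 3 intervals. BEL1 (AT5G41410), the ovule identity gene, had fold enrichments of 2.11 and 2.15 in replicate 1. BEL10 (AT1G19700) had 1.82 and 2.82, and BLH2 (AT4G36870) had 2.08 and 2.62. The single replicate 2 interval in each gene had 1.86, 2.55 and 1.97.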
